A study of Mus musculus with 19 samples.

Results

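The 8 Mcm8 knockout hearts of a mouse series of 19 heart libraries were divided by the level of Myh7, the gene of the slow β-myosin heavy chain. The division was chosen from the measured values: 4 libraries held over 10000 CPM of Myh7 (counts scaled to a common library total) and 4 held fewer. Myh7 therefore selected the members, its level is given as a description only, and no test was made between the high and the low set. The high set held Mcm8 knockout PBS replicates 1 and 3 and Mcm8 knockout LCWE replicates 4 and 5. The low set held knockout PBS replicate 2 and knockout LCWE replicates 1, 2 and 3.

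The study examined how Mcm8, which encodes a helicase of DNA repair, bears on vessels in a mouse model of Kawasaki disease. Total RNA of heart tissue was sequenced from knockout mice, written Mcm8-/- by the submitters, given PBS (n = 3) or LCWE (n = 5), and from wild-type mice given PBS (n = 5) or LCWE (n = 6). LCWE is the cell wall extract of Lactobacillus casei, which induces vasculitis in mice. The way the allele was made, the strain, the age, the dose and the time of tissue collection do not appear in the labels. The labels do not tie each sample to an animal of its own, so spreads and p-values measure differences between these samples, which may be technical.

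The mouse ventricle is built on the fast α-myosin heavy chain of Myh6, whereas Myh7 dominates before birth. Myh7 is expressed again in hearts under pressure load, with low thyroid hormone or with age, usually as part of a fetal gene program with the natriuretic peptides Nppa and Nppb and skeletal actin Acta1. Both myosin genes lie side by side and each carries a microRNA in an intron: miR-208a in Myh6 and miR-208b in Myh7. An antisense RNA, Mhrt, starts between them and runs across the end of Myh7.

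In GRCm38, Myh7 spans chr14:54970684-54994626 and Myh6 spans chr14:54941921-54966927, both on the minus strand, and Mhrt spans chr14:54968678-54974349 on the plus strand. The 77-base Mir208b gene (chr14:54975700-54975776) lies between exons 31 and 32 of the 41 exons of Myh7, and overlaps 0 of its exonic bases. The mature microRNAs of the myosin genes are shown because one of their loci moved against its host gene. They come from RefSeq (GRCm38.p6), run 5′ to 3′, and have the seed, bases 2 to 8, in capitals:
mmu-miR-208b-3p: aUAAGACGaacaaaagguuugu
mmu-miR-208a-3p: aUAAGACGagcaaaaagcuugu
The seeds of miR-208a and miR-208b were identical, and their mature sequences differed at 3 of 22 bases.

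Stretches before RefSeq starts of Myh7 (chr14:54994762-54994876, minus strand) and Myh6 (chr14:54966748-54966857, minus strand) are shown because their transcripts lay in opposite directions in the division. The capitals mark the letters GGAATG, the core of the M-CAT element read by TEAD factors, which begin at position -201 from the RefSeq start of Myh7 (54994626) and -206 from that of Myh6 (54966607). The start of Myh7 is the end of its span above. That of Myh6 lies 320 bases inside its span, so the stretch shown falls in an intron of 1 longer GENCODE transcript:
Myh7: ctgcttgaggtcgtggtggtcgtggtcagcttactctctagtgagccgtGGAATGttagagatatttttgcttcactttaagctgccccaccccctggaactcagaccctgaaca
Myh6: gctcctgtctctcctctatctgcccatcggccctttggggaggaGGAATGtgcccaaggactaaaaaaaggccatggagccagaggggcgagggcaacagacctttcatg
These letters, searched on both strands, were held by 12.6% of 32851 RefSeq windows of the same 250 bases before a start. The match is a description of the sequence, and binding was not measured.

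Totals ran from 13258969 to 15727823 counts in the high set and from 12648090 to 14705236 in the low set. CPM below are scaled by the TMM factor of each library, except where the dividing value itself is named. Mcm8 lay at 0.130 to 0.910 CPM in all 8 knockout libraries (2 to 13 counts) and at 2.60 to 5.19 CPM in wild type. Xist, which is expressed from the inactive X chromosome, was over 20 CPM in 2 of 4 high and 1 of 4 low libraries and in 10 of 11 wild-type libraries. Knockout LCWE replicate 2 held neither Xist (10 counts) nor Y-linked reads (7 counts of Ddx3y), whereas libraries with Y-linked reads held 551 to 863 counts of Ddx3y. The labels number the samples, and within knockout LCWE both high hearts had numbers under 100 and all 3 low hearts numbers from 100 to under 200. What the numbers stand for is not given in the sources used here, and there Myh7 and the number range cannot be told apart. Within knockout PBS it was the low heart that had a number under 100, and both high hearts had numbers over 100.

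Myh7 by the dividing measure lay at 15876 ± 3572 CPM in the high set (SD, n = 4), 1049 ± 492 in the low set (n = 4) and 1647 ± 991 in wild type (n = 11). On the scaled measure, the high PBS hearts held 14213 and 13251 CPM and the high LCWE hearts 16702 and 20425 CPM. The low PBS heart held 803 CPM and the low LCWE hearts 851, 1701 and 730 CPM. Wild type ran from 464 over a median of 2091 to 3216 CPM. The low knockout hearts therefore lay inside the wild-type range, and the high hearts lay outside it. No library fell between 3273 and 12906 CPM on the dividing measure, so the division does not depend on the exact threshold in that span.

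Myh6 remained the more abundant myosin in every library. It held 43080, 37077, 37081 and 49581 CPM in the high hearts, in the order of PBS replicates 1 and 3 and LCWE replicates 4 and 5. It held 51456 CPM in the low PBS heart and 50675, 50832 and 52092 CPM in the low LCWE hearts, and 38825 to 61448 CPM in wild type. Every high heart lay below every low heart, by -0.29 on the log2 scale after adjustment for treatment, but only 2 of the 4 lay under the wild-type range. Per kilobase of transcript, Myh7 made up 27.5% ± 2.78 of the sum of Myh6 and Myh7 in the high set, 1.92% ± 0.849 in the low set and 3.15% ± 1.95 in wild type. Reads can be shared by the pair: 22.2% of the 50-base windows and 11.2% of the 100-base windows of the Myh7 transcript occurred in a Myh6 transcript.

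The counts at Mir208b ran against its host gene. In the high hearts they were 15.8 and 11.3 CPM after PBS and 15.5 and 21.1 CPM after LCWE. In the low hearts they were 42.2 CPM after PBS and 33.2, 44.3 and 33.3 CPM after LCWE, and wild type held 27.7 to 56.8 CPM. All 4 high hearts lay under every low and every wild-type library, by -1.24 on the log2 scale, on 150 to 324 counts a library. These counts cover reads assigned to the 77-base locus in total RNA and are not a measure of the mature miR-208b printed above. Mhrt, the long noncoding RNA known to be lost when Myh7 is induced by load, held 30.5 and 23.6 CPM in the high PBS hearts and 29.7 and 33.8 CPM in the high LCWE hearts. It held 70.1 CPM in the low PBS heart, 50.4, 54.7 and 48.6 CPM in the low LCWE hearts and 41.2 to 85.1 CPM in wild type. The high hearts again lay below all others, by -0.94 on the log2 scale. Of the exonic bases of Mhrt, 39.9% lie within Myh7 exons on the other strand, and whether counting used strand is not given in the sources used here. Reads of the pair can then not be told apart there, though Myh7 and Mhrt moved in opposite directions. Mir208a, at 2.11 to 5.46 CPM in the high and 1.47 to 3.07 CPM in the low hearts, overlapped between the sets.

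**Figure D1:**
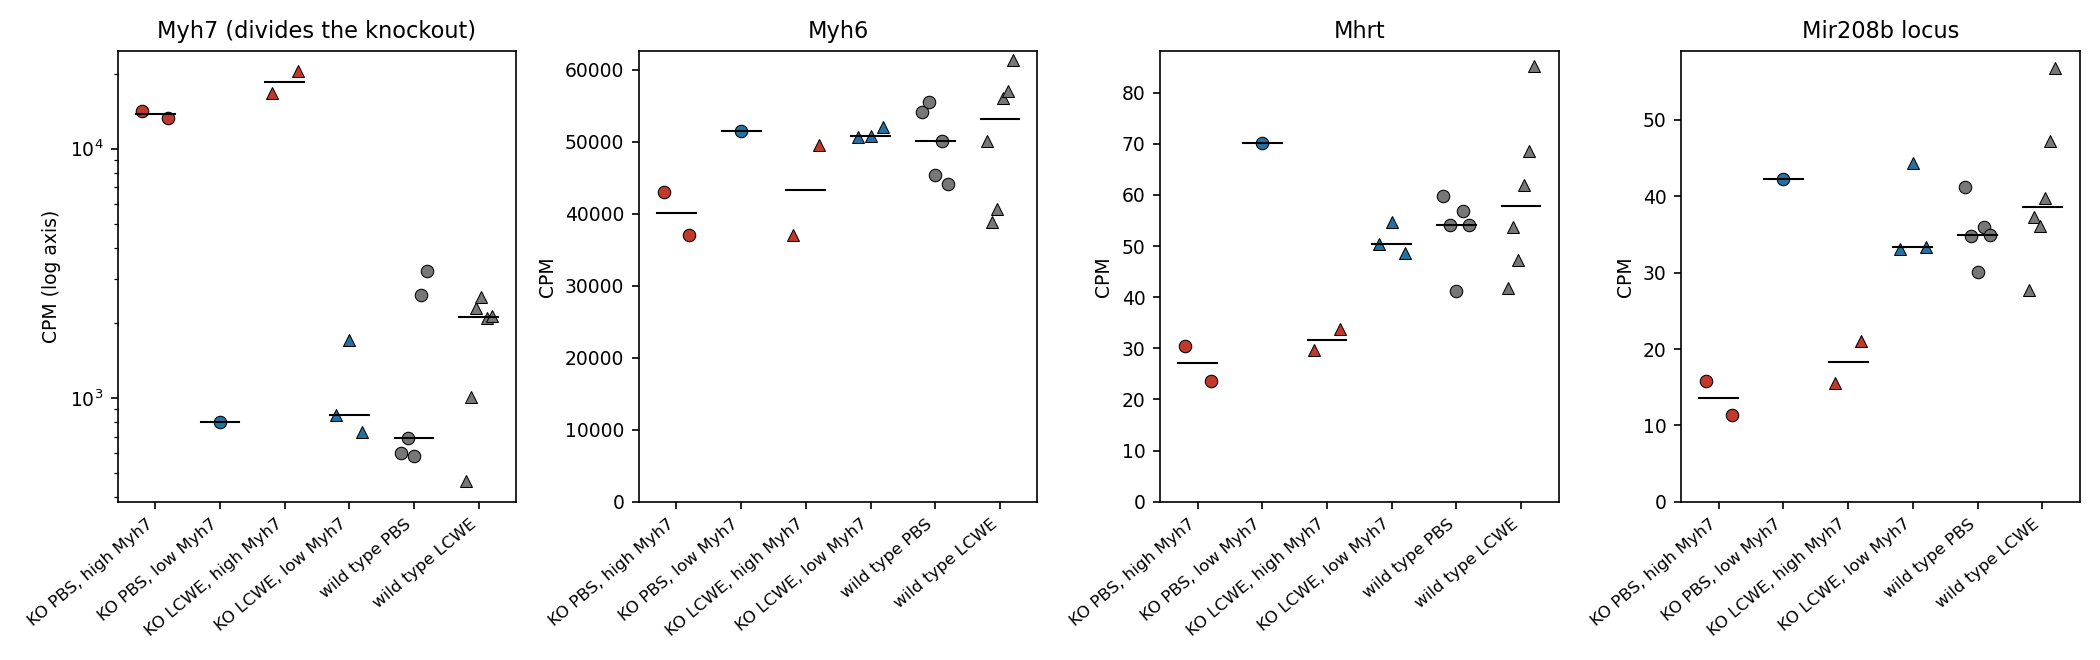
Myh7 (log axis), Myh6, Mhrt and the Mir208b locus in CPM in all 19 libraries, grouped by genotype, treatment and, in the knockout (KO), by Myh7; each point is a library and each bar a group median. The 4 high-Myh7 knockout hearts sit at 23.6 to 33.8 CPM of Mhrt and 11.3 to 21.1 CPM of Mir208b, below all other libraries.

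For the other 14300 tested genes, a gene is said to separate when every high heart lay on the same side of every low heart within PBS (2 against 1) and within LCWE (2 against 3), and the difference of log2 CPM adjusted for treatment was at least 2-fold. By this rule 109 genes (0.762% of those tested) were higher and 183 (1.28%) were lower in the high set. Of these, 85 and 160 had no overlap between the sets over all 8 libraries whatever the treatment. A mean of at least 5 CPM over the knockout libraries was reached by 54 of the 109 higher and 93 of the 183 lower genes. The median difference over all tested genes was -0.01. Just inside the 2-fold bound lay Igfbp3 at 1.0007 and Arhgap28 at -1.0048, and 5031434O11Rik lay just outside it on the higher side. With 3 PBS hearts, the low side under PBS rests on 1 library: without knockout PBS replicate 2 only LCWE hearts remain to be compared, 650 genes separated, and the share lower went from 62.7% to 44.0%.

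Among the higher genes with a mean of at least 5 CPM, the 12 with the largest difference included Inmt, Lcn2, Spock2, Apod, Serpina3n, Fmo2, Dbp, Ppl, Cyp1a1, Per2 and Tcf23, with log2 differences from 2.62 to 2.02. Inmt, an indole and amine methyltransferase, held 76.0 and 35.3 CPM in the high PBS hearts against 5.35 in the low one, and 38.7 and 8.98 CPM in the high LCWE hearts against 3.63, 2.66 and 5.47. Apod, a lipid-binding lipocalin, held 30.1 and 26.3 CPM against 13.5 after PBS, and 37.9 and 44.4 CPM against 6.42, 3.64 and 3.60 after LCWE. Its 4 high hearts lay above the wild-type range of 4.13 to 10.2 CPM, as did the low PBS heart.

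Fmo2, a flavin monooxygenase, held 203 and 92.3 CPM against 33.8 after PBS and 106 and 48.7 CPM against 17.8, 10.8 and 13.3 after LCWE, with the 4 high hearts above the wild-type maximum of 41.9 CPM. Ppl, which encodes the desmosomal linker periplakin, was among the most even: 19.95 and 20.2 CPM against 5.07, and 18.4 and 16.5 CPM against 3.17, 3.57 and 3.07. Its wild-type range reached 19.1 CPM, so high hearts and the top of wild type overlapped. Lcn2 and Serpina3n, both acute-phase genes, depended most on LCWE replicate 4, where they held 35.4 and 81.5 CPM. In the other 3 high hearts Lcn2 held 4.23 to 8.21 CPM and Serpina3n 9.76 to 25.6 CPM, and both still exceeded every low heart, where Lcn2 reached 2.06 and Serpina3n 5.91 CPM. Spock2, a matrix proteoglycan, was highest in PBS replicate 1 at 246 CPM, with 28.4 to 50.7 CPM in the other high hearts and 7.34 to 13.0 in the low ones. Cyp1a1, the classical target of the aryl hydrocarbon receptor, ran from 8.12 to 17.5 CPM in the high and from 1.42 to 4.80 CPM in the low hearts.

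The 12 lower genes with the largest difference were Spon2, Aplnr, Apln, Sez6l2, Col15a1, Nrep, Mest, Col3a1, Itgb6, Mycn, Papln and Meox1, with log2 differences from -2.72 to -1.81. Apln and Aplnr, the vascular peptide apelin and its receptor, were both among the first 3. Apln held 1.19 and 3.46 CPM in the high PBS hearts against 27.2 in the low one, and 3.32 and 6.77 CPM in the high LCWE hearts against 20.2, 23.5 and 20.5. Aplnr held 17.7 and 30.9 CPM against 98.3 after PBS, and 14.2 and 20.4 CPM against 129, 163 and 142 after LCWE. For both genes the 4 high hearts lay below every wild-type library, whose minimum was 11.7 CPM for Apln and 33.5 CPM for Aplnr.

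Mest, an imprinted gene of fetal growth, held 3.78 and 3.31 CPM against 8.85 after PBS and 2.24 and 2.67 CPM against 13.1, 20.3 and 16.11 after LCWE. Mycn, a growth-promoting transcription factor active in the embryonic heart, held 2.45 and 2.86 CPM against 5.69 after PBS, and 1.15 and 2.41 CPM against 7.27, 18.8 and 6.97 after LCWE. Nrep, which encodes the neuronal regeneration-related protein, lay between 7.31 and 10.5 CPM in the high hearts and between 32.2 and 50.9 CPM in the low ones. For these 3 genes all high hearts lay under the wild-type minimum, which was 5.61 CPM for Mest, 3.65 for Mycn and 10.6 for Nrep. Spon2, a secreted matrix protein, ran from 0.420 to 5.47 CPM in the high and from 5.07 to 62.9 CPM in the low hearts. The spans of Spon2 overlapped across treatments but not within either.

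**Figure D2:**
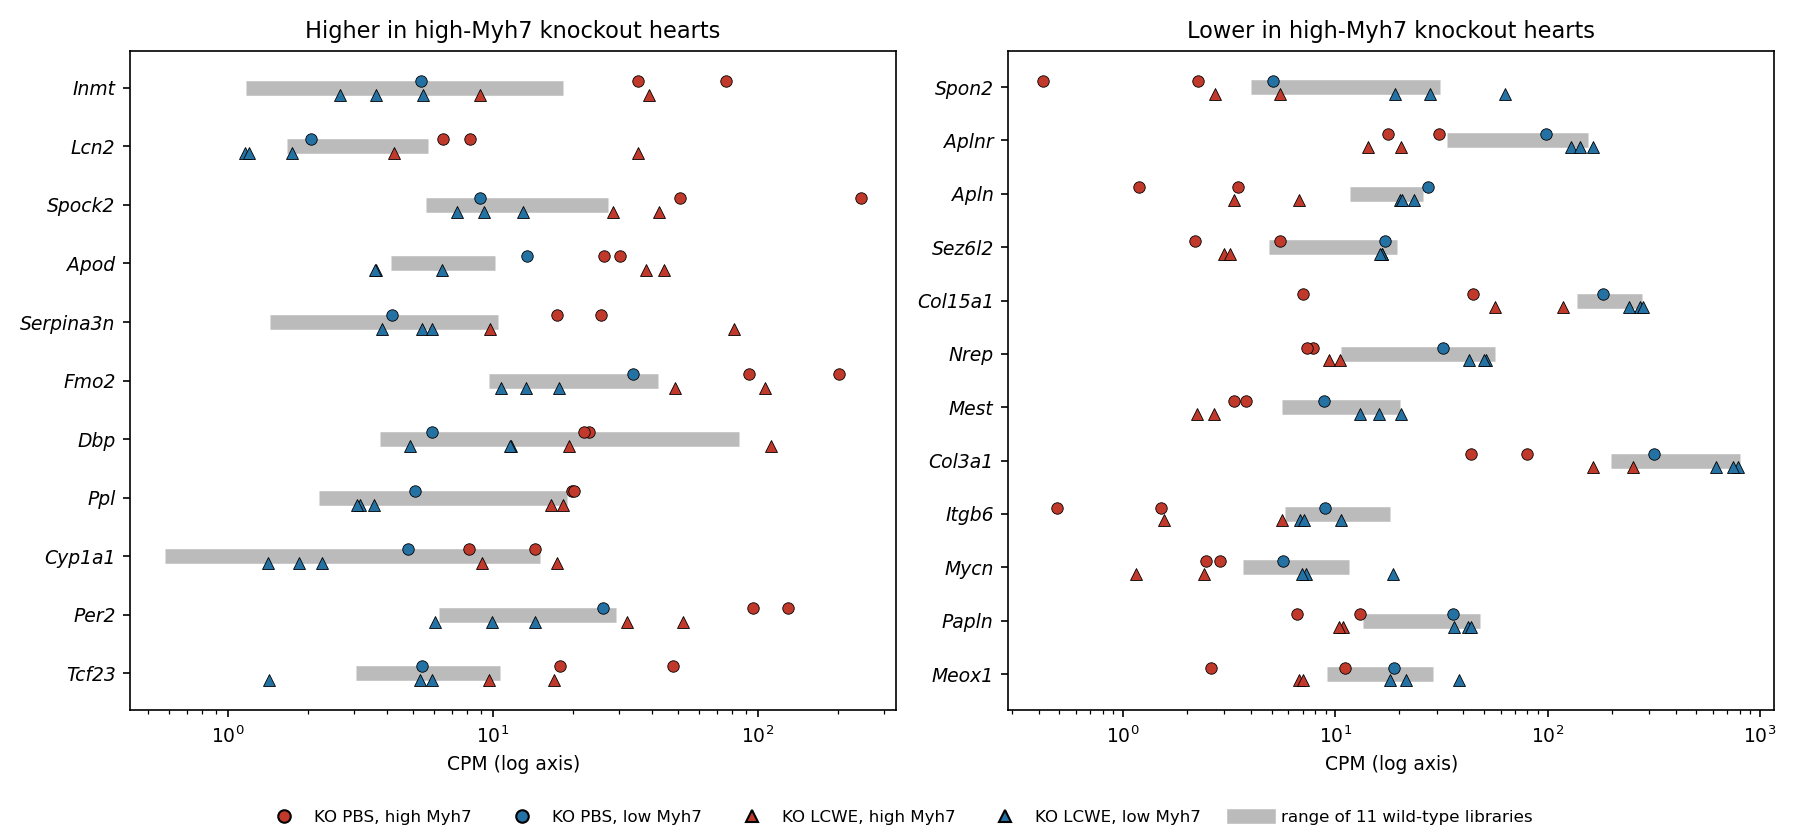
CPM (log axis) of 11 higher and 12 lower separating genes in the 8 knockout (KO) hearts, red for high and blue for low Myh7, circles for PBS and triangles for LCWE; grey bars span the 11 wild-type libraries. Most blue points lie in or near the grey bars, and the red points of Apln, Aplnr, Col15a1, Nrep, Mest and Mycn lie below them.

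The genes most like Myh7 were sought by Pearson's r of log2 CPM over the 8 knockout libraries, which share the division itself. The highest were Kcnj12 and Crip2 (r = 0.97 each), followed by Ntn1, Mfap1a and Ppl (r = 0.96 each), and the lowest were Mpp3 (r = -0.99), Arvcf and Mrpl55 (r = -0.96 each). Kcnj12, an inward rectifier potassium channel, held 88.5 and 77.1 CPM against 48.4 after PBS and 76.6 and 94.3 CPM against 41.2, 51.1 and 42.5 after LCWE. Likeness in shape and size of difference were distinct: Crip2, a LIM protein, held 1631 to 1775 CPM in the high and 1352 to 1437 CPM in the low hearts.

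The other fetal and load-induced cardiomyocyte genes lay on both sides of 0, with 8 above and 12 below. Of 20 tested, 0 separated higher and 2 lower, against 0.762% and 1.28% of all tested genes. The count of 0 is thus near the share over all genes. The median difference was -0.45 after adjustment for treatment, -0.07 within PBS and -0.17 within LCWE. Nppa, the atrial natriuretic peptide, held 675 and 891 CPM against 427 after PBS and 1410 and 924 CPM against 771, 1025 and 369 after LCWE, so the sets overlapped. Nppb, its brain-type relative, held 155 and 200 CPM against 180 after PBS and 334 and 301 CPM against 610, 618 and 608 after LCWE, where both high hearts were the lower ones. Acta1 held 129 and 280 CPM against 394 after PBS, and 207.96 and 142 CPM against 305, 346 and 206 after LCWE, again with overlap. Ankrd1, a load-sensitive titin-binding protein, did not overlap between the sets but differed by less than 2-fold (0.87 on the log2 scale): 2010 to 2291 CPM in the high and 838 to 1672 CPM in the low hearts. The lower members were Acta2, smooth muscle actin, at 98.9 to 275 CPM against 111 to 737 CPM, and Rcan1, a calcineurin target, at 78.8 to 108.1 CPM against 187 to 227 CPM.

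Adult sarcomere and Z-disc genes had 0 of 23 members separating in either direction, with a median of -0.08. Among thyroid hormone genes, 0 of 18 separated higher and 1 lower, Hr, the hairless corepressor, at 13.6 to 23.4 CPM against 28.8 to 43.6 CPM. The receptor genes Thra and Thrb differed by 0.10 and 0.26 and overlapped. Of the calcium-handling genes, 1 of 17 separated: Casq1, the skeletal type of calsequestrin, was lower at 4.22 to 13.9 CPM against 20.1 to 42.8 CPM. Of 42 nuclear genes of oxidative phosphorylation 39 lay below 0 (median -0.13), and of 43 cytosolic ribosomal protein genes 43 lay above 0 (median 0.20). Of 31 fatty acid oxidation genes 24 lay above 0 (median 0.27), and 0 separated in all 3 lists. Over all tested genes 7015 lay above 0 and 7285 below.

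Of the 41 gene lists, that of matrix genes had the most members that separated lower in the high set. Of 37 tested, 8 separated lower (Col1a1, Col3a1, Col5a1, Col6a1, Col15a1, Postn, Loxl2 and Tnc), 1 separated higher (Thbs2), and 32 lay below 0, with a median of -0.72. Col3a1, the collagen of fibroblasts and vessel walls, held 43.7 and 79.6 CPM against 318 after PBS and 164 and 253 CPM against 790, 744 and 623 after LCWE. Col15a1, a basement membrane collagen, held 7.002 and 44.6 CPM against 182.7 after PBS, and 56.6 and 118 CPM against 273, 281 and 240 after LCWE, and all 4 high hearts were below the wild-type minimum of 136.8 CPM. Col1a1 held 60.8 and 86.9 CPM against 146 after PBS, and 116.9 and 140 CPM against 304, 328 and 239 after LCWE. Postn, the periostin of activated fibroblasts, held 9.31 to 22.6 CPM in the high and 34.1 to 83.2 CPM in the low hearts. Thbs2, a thrombospondin, ran the other way, at 61.6 to 187 CPM against 28.7 to 31.1 CPM, above the wild-type maximum of 47.7 CPM in all 4 high hearts.

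In bulk tissue, fewer fibroblasts and less collagen RNA in each fibroblast cannot be told apart. Of 15 fibroblast markers, 1 separated higher (Dpep1) and 2 lower (Cd248 and Meox1), 11 lay below 0, and the median was -0.32, against -0.72 for the matrix list. Dpep1 held 95.7 to 220 CPM in the high and 39.7 to 70.4 CPM in the low hearts, while Meox1 held 2.59 to 11.1 CPM and 18.1 to 38.3 CPM. Endothelial markers had 0 of 20 members separating and a median of -0.17, and smooth muscle and pericyte markers had 1 of 15 separating (lower) and a median of -0.09. Cell cycle genes had 17 of 18 below 0 with a median of -0.66, and 3 separated lower. These were the topoisomerase Top2a, cyclin A2 (Ccna2) and the spindle factor Tpx2, each at 0.301 to 3.79 CPM in the high hearts and at 1.78 to 6.49 CPM in the low ones.

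The circadian clock list had the most members that separated higher in the high set. Of 19 tested, 6 separated higher (Per1, Per2, Per3, Dbp, Tef and Bhlhe41) and 1 lower (Arntl), and the median was 0.89. The Per genes and Bhlhe41 repress the clock, Dbp and Tef are output factors driven by it, and Arntl encodes the activator BMAL1, whose RNA cycles opposite to Dbp. Per2 held 130 and 95.7 CPM against 26.0 after PBS and 32.2 and 52.0 CPM against 9.97, 14.4 and 6.07 after LCWE. Per3 held 78.8 and 48.1 CPM against 22.0 after PBS, and 34.2 and 75.3 CPM against 11.8, 10.5 and 13.9 after LCWE. Dbp held 23.1 and 22.1 CPM against 5.90 after PBS, and 19.4 and 112 CPM against 11.7, 4.87 and 11.6 after LCWE. Arntl held 22.5 and 15.2 CPM against 37.5 after PBS, and 13.9 and 6.90 CPM against 32.9, 29.3 and 32.5 after LCWE. The ranges in the high and low hearts were 96.6 to 301 and 43.2 to 81.1 CPM for Per1, 155.7 to 422 and 64.1 to 129 CPM for Tef, and 17.2 to 59.9 and 11.98 to 14.2 CPM for Bhlhe41. For each of these named genes the high and low hearts did not overlap over all 8 libraries. Against wild type, 2 of the 19 clock genes, Per2 among them, had all 4 high hearts above every library. Dbp ran from 3.76 to 85.3 CPM in wild type, so its wild-type range overlapped the high hearts. Nr1d1 and Nr1d2, the REV-ERB receptors, differed by 0.81 and 0.96 but overlapped under LCWE, and Clock differed by -0.29. The hour at which each heart was taken is not given in the sources used here, and its part was not tested.

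**Figure D3:**
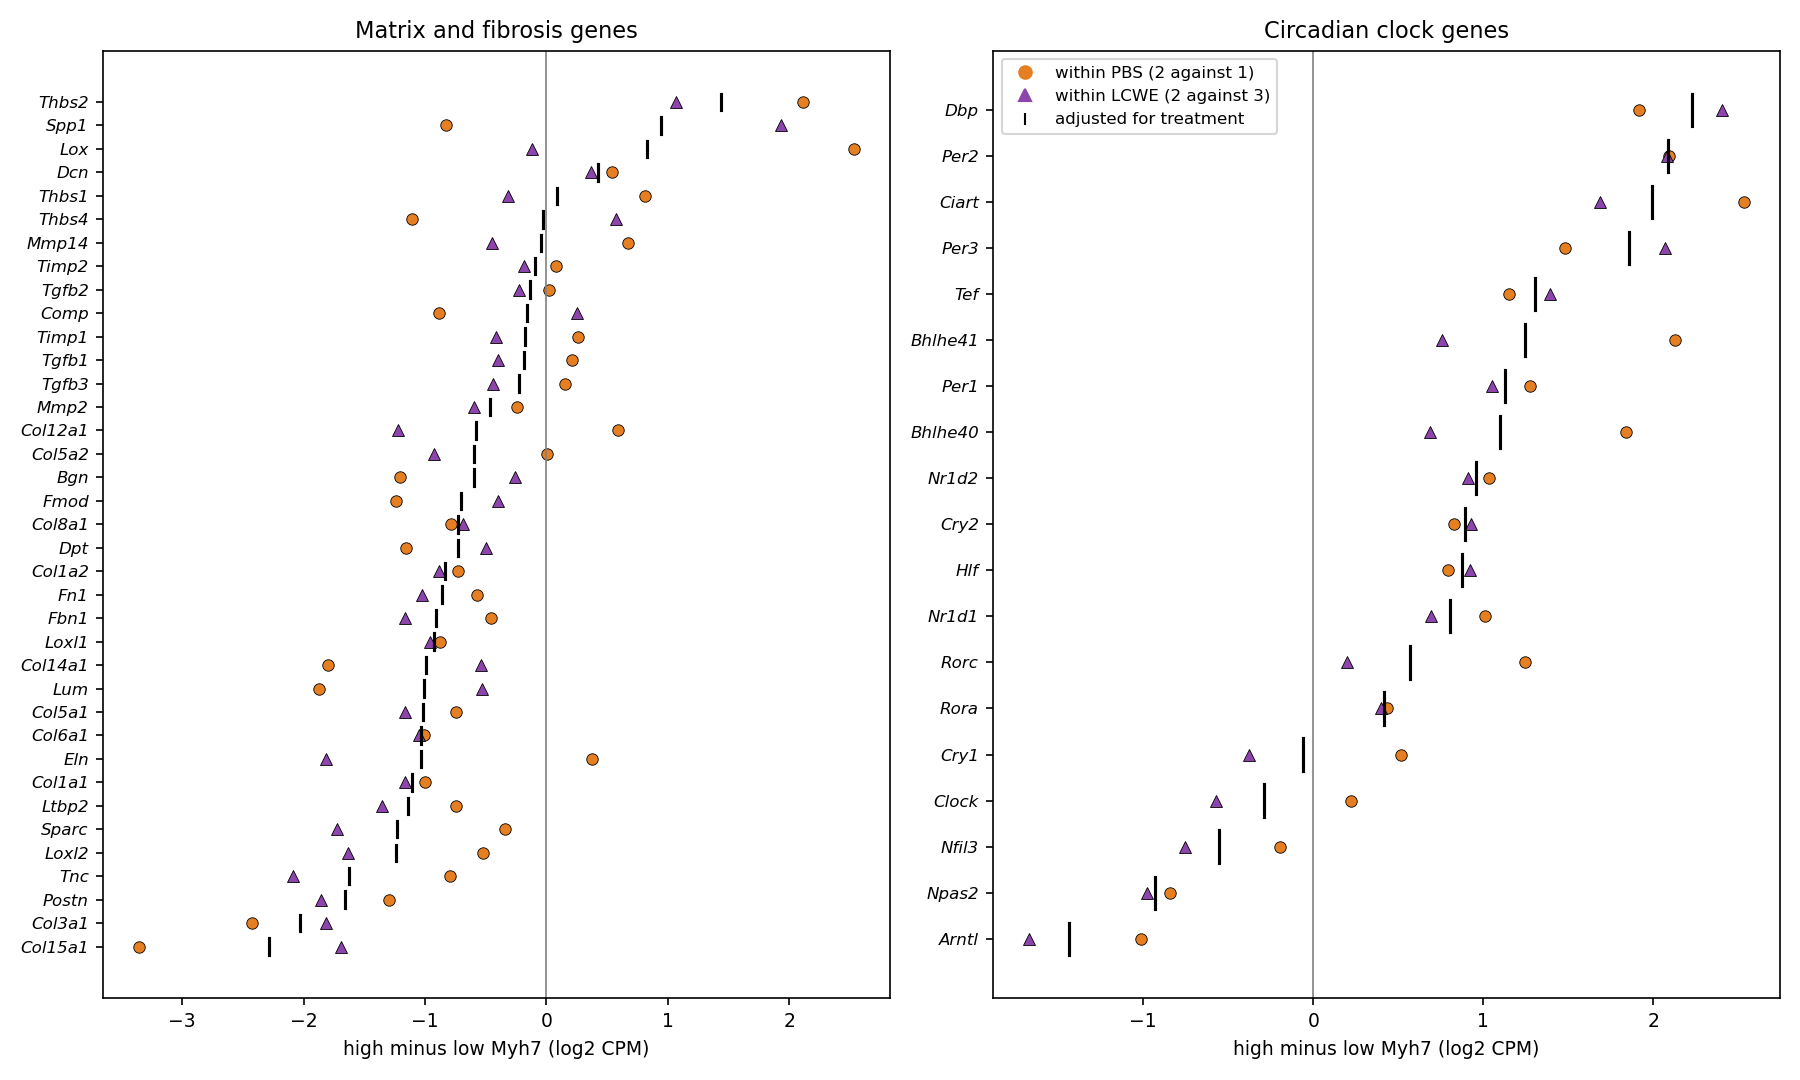
Difference of log2 CPM between high- and low-Myh7 knockout hearts for each tested member of the matrix and fibrosis list (left) and of the clock list (right), within PBS (circles), within LCWE (triangles) and adjusted for treatment (bars). Of the matrix genes 32 of 37 have an adjusted difference below 0, and of the clock genes 14 of 19 lie above 0 with Arntl lowest.

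Sequences before RefSeq starts of Per1 and Per3 are shown because the 2 transcripts lay higher together. Capitals mark CACGTG, the E-box read by CLOCK and BMAL1, or TTATGTAA, the D-box read by DBP and TEF, both searched on either strand. In RefSeq (GRCm38.p6), the stretches are from Per1 (chr11:69098723-69098848, plus strand) and Per3 (chr4:151044756-151044915, minus strand). The start used for Per1 (69098949) lies 3732 bases inside its GENCODE span (chr11:69095217-69109960), so its stretch falls in an intron of 1 longer transcript, whereas that of Per3 (151044665) is the end of its span:
Per1: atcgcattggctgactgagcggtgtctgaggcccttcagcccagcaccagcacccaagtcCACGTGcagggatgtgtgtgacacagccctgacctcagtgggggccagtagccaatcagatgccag
Per3: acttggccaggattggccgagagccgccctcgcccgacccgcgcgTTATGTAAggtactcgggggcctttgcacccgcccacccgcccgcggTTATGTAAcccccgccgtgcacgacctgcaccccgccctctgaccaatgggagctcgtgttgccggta
CACGTG was held by 6.02% of all windows and TTATGTAA by 0.819%, the latter with 2 copies in the window of Per3. Of 16 clock genes with a window, 5 held CACGTG in one, against 6.86% of all genes. Per2 had no entry. Binding was not measured.

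Targets of the glucocorticoid receptor overlapped with this list. Of 15 tested, 4 separated higher (Fkbp5, Mt2, Lcn2 and Per1, the last also a clock gene) and 0 lower, with a median of 0.35. Fkbp5, a cochaperone of the receptor, held 267 and 55.4 CPM against 44.6 after PBS and 105 and 73.6 CPM against 38.5, 15.6 and 34.8 after LCWE. Mt2, a metallothionein, held 46.3 to 120.8 CPM in the high and 15.6 to 29.5 CPM in the low hearts. Tsc22d3, another textbook target, differed by 0.16 and overlapped at 74.6 to 244 CPM against 71.1 to 131 CPM. In glycolysis, 1 of 25 genes separated: Pfkfb3, which makes the activator of phosphofructokinase, was higher at 26.7 to 103 CPM against 12.9 to 22.3 CPM.

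Macrophage and monocyte markers had a lower summed level in the high than the low hearts after PBS and a higher one after LCWE. The median difference of 20 such markers was -1.05 within PBS and 0.98 within LCWE, and 0 separated. Their summed level was 313 and 253 CPM in the high PBS hearts against 583 in the low one, and 1619 and 999 CPM in the high LCWE hearts against 638, 548 and 652. Neutrophil markers summed to 9.66 and 11.902 CPM against 7.47 after PBS and 139 and 32.8 CPM against 7.42, 15.6 and 13.5 after LCWE. The PBS sums included Lcn2, a separating gene, at 6.51 and 8.21 CPM in the high hearts against 2.06 in the low one. The median difference of the 8 neutrophil markers tested was -0.56 within PBS and 2.18 within LCWE. Knockout LCWE replicate 4 held the most macrophage and neutrophil marker RNA, and also the most atrial marker RNA (4115 CPM in sum). Atrial marker sums in the other high hearts were 2543 and 2986 CPM after PBS and 2110 CPM after LCWE. They were 1967 CPM in the low PBS heart, 1736, 2222 and 1309 CPM in the low LCWE hearts and 1180 to 2156 CPM in wild type. Of 16 atrial markers tested 0 separated, with a median difference of 0.02. Without knockout LCWE replicate 4, 467 genes separated, and without knockout PBS replicate 3 there were 458. Skeletal muscle markers summed to 84.2 to 448 CPM in the high and 97.7 to 579 CPM in the low hearts, and liver markers to 30.8 to 570 and 219 to 374 CPM. The part of these markers in the separating genes was not tested.

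Against wild type, it was the high hearts that lay apart. All 4 high hearts lay above every wild-type library for 166 genes (1.16% of those tested) and below for 242 (1.69%). All 4 low hearts did so for 6 and 3 genes. Of the 109 genes that separated higher, 24 (22.0%) had the high hearts beyond the wild-type range, and 0 had the low hearts beyond it. Of the 183 that separated lower, 55 had the high hearts beyond the range and 1 had the low hearts beyond it. The separating genes were picked by the position of these same hearts, so their shares partly follow from that choice. Over all tested genes the shares were 2.85% for the high and 0.063% for the low hearts. Among the 24 were Apod, Fmo2, Per2, Spock2, Thbs2, Pfkfb3 and the cortisone reductase Hsd11b1. Among the 55 were Apln, Aplnr, Mest, Mycn, Nrep, the type VI collagens Col6a1, Col6a2 and Col6a3, the cell cycle gene Ccnd1 and Mir208b.

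The wild-type hearts, which the division did not use, allowed a test of whether genes vary with Myh7 there. The slope of log2 expression on log2 Myh7 was fitted over the 11 wild-type libraries with treatment as a covariate (edgeR quasi-likelihood test, Benjamini-Hochberg adjustment over all genes). At an adjusted p under 0.05, 44 genes (0.308%) rose and 96 (0.671%) fell with Myh7. Of the 109 genes higher in the high knockout hearts, 2 (1.83%) rose with Myh7 in wild type and 79 (72.5%) had a slope above 0, against 50.1% of all genes. Of the 183 lower genes, 21 (11.5%) fell with Myh7 in wild type and 164 (89.6%) had a slope below 0, against 49.9% of all genes. Read the other way, 21.9% of the genes that fell in wild type separated lower in the knockout.

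These wild-type calls rested on wild-type LCWE replicate 1. It had the lowest Myh7 of the series (464 CPM) and was the only wild-type library with Y-linked reads and without Xist. Without it 0 genes passed and 1522 had an unadjusted p under 0.05, against 2090 with it (edgeR). DESeq2 called 582 genes over all 11 libraries. The Y-linked genes themselves were among those that fell with Myh7, and with Ddx3y as a covariate 0 genes passed. With the number range as a covariate, or within numbers from 100 to under 200 alone, 0 genes passed as well. Without that library 159 of the 183 lower genes (86.9%) had a slope below 0, and 149 (81.4%) did so with the number range as a covariate, against 164 over all 11 libraries. For the 109 higher genes the slope was above 0 in 79 under each of these settings.

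Apln shows the pattern in wild type. It was highest, at 25.7 CPM, in wild-type LCWE replicate 1 and lowest, at 11.7 CPM, in wild-type PBS replicate 5, which had the most Myh7 (3216 CPM). Its slope was -0.33 ± 0.05 per doubling of Myh7 (edgeR adjusted p = 0.0106), and -0.36 ± 0.06 without that LCWE library (adjusted p = 0.108). Aplnr had a slope of -0.56 ± 0.16 that did not pass (adjusted p = 0.123). Mest fell by 0.54 ± 0.09 (adjusted p = 0.0170) and had a slope of -0.51 ± 0.12 that did not pass without the library (adjusted p = 0.167). Itga9, an integrin subunit of lymphatic vessels, had the strongest call in this direction, at -0.37 ± 0.04 (adjusted p = 0.00576), and separated lower in the knockout by -1.27.

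The other genes with the smallest p that fell were Nid2, Spata13, Col1a2, Peg3, Ackr3, Map4k4 and Pcdh17, with slopes from -0.26 to -0.63. Peg3, an imprinted zinc finger gene, fell in wild type by 0.47 and in the knockout differed by 1.55 within PBS and -0.61 within LCWE. The genes that rose were led by Rhd, Stard10, Gcat, Gmnn, Prxl2a, Amy1, Ptgds and Alpl, with slopes from 0.29 to 0.78. Ptgds, the prostaglandin D synthase, ran from 122.8 to 678 CPM in wild type with a slope of 0.70 ± 0.12 (edgeR adjusted p = 0.0172). In the knockout Ptgds held 389 to 1032 CPM in the high and 149 to 197 CPM in the low hearts. Ptgds and the amylase gene Amy1 were the 2 genes that separated higher and rose in wild type.

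Some matrix genes also fell with Myh7 in wild type. Of 37, 13 fell and 0 rose, against 0.671% and 0.308% of all genes. Slopes lay below 0 in 33 of the 37, against 49.9% of all genes, with a median slope of -0.23 against 0.00 for all genes. The 13 were Col1a1, Col1a2, Col3a1, Col5a1, Col5a2, Col6a1, Col8a1, Col15a1, Fn1, Loxl2, Sparc, Fbn1 and Eln. Col1a1 ran from 117.1 to 345 CPM with a slope of -0.40 ± 0.07 (edgeR adjusted p = 0.0260). Without wild-type LCWE replicate 1, 0 of the 37 passed, the median slope was -0.24 and 32 lay below 0, and Col1a1 had a slope of -0.35 ± 0.09 (adjusted p = 0.196). The clock list had 0 of 19 members called in wild type and a median slope of -0.00 per doubling of Myh7. Its slopes lay above 0 in 9 genes and below 0 in 10. The median difference of 0.89 in the knockout spans a Myh7 difference of 4.15 on the log2 scale, so these medians cannot be compared directly. The list also mixes genes that cycle opposite to each other, so its median does not describe single members. Per2 and Dbp had slopes of 0.37 ± 0.17 and 0.55 ± 0.33 that did not pass. Cell cycle genes had 17 of 18 slopes below 0 (median -0.53), and 1, Mki67, fell.

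**Figure D4:**
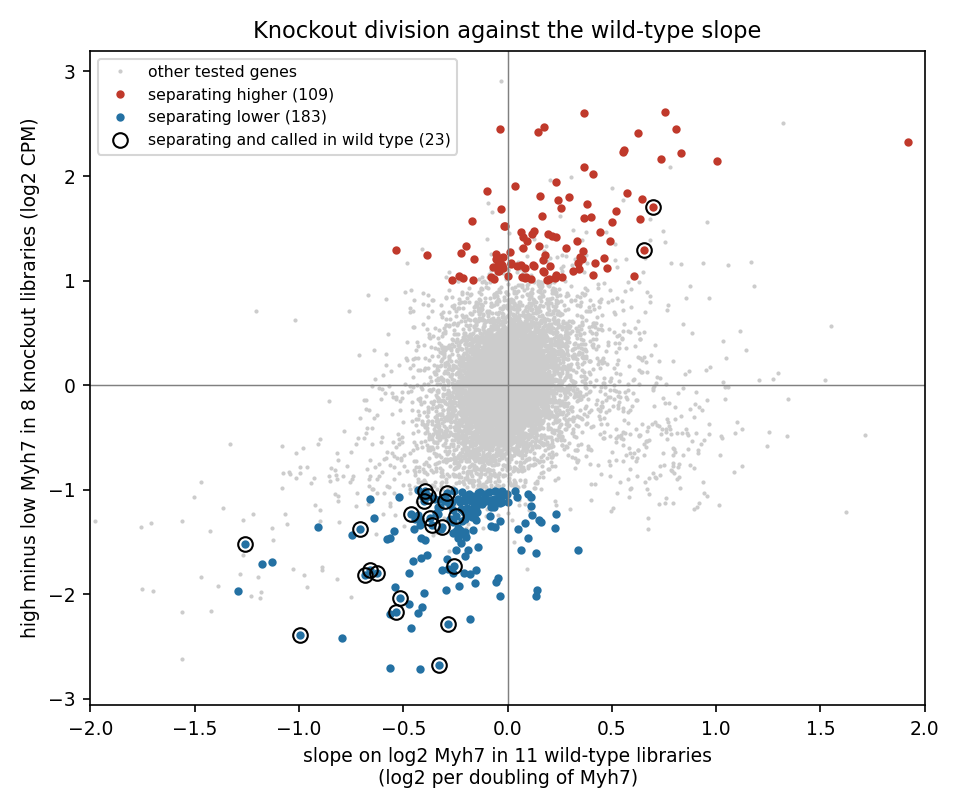
For each of 14300 genes, the difference between high- and low-Myh7 knockout hearts (y axis, log2 CPM) against the slope on log2 Myh7 in 11 wild-type libraries (x axis, log2 per doubling; 8 genes lie beyond the axis). The 183 separating lower genes (blue) lie mostly at slopes below 0, and the rings mark the 23 separating genes that also passed the wild-type test.

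The classical partners of Myh7 did not follow it in wild type. For Myh6, Nppa, Nppb, Acta1, Ankrd1, Actc1, Xirp2 and Atp2a2, Pearson's r with log2 Myh7 over the 11 libraries ran from -0.09 to 0.39 (two-sided permutation tests, adjusted p = 0.950 for each of the 8), and Spearman's rho from -0.22 to 0.44 (lowest adjusted p = 0.861). Without the 2 libraries farthest from the median Myh7, r ran from -0.44 to 0.24, and within the 7 libraries numbered from 100 to under 200 from -0.58 to 0.43. Mhrt and Mir208b, lower in the high knockout hearts, had wild-type slopes of 0.14 ± 0.08 and 0.12 ± 0.08 that did not pass (edgeR adjusted p = 0.462 and 0.532).

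Whether the division alters the labelled comparison of LCWE with PBS was examined in the 8 knockout libraries. With treatment alone, 0 genes (0%) passed in edgeR, 2416 had an unadjusted p under 0.05, and DESeq2 called 419. With log2 Myh7 added to the model, 0 genes (0%) passed, 2354 had an unadjusted p under 0.05, and DESeq2 called 426. Without knockout PBS replicate 2, the low PBS heart, 1313 genes passed with treatment alone and 632 with Myh7 in the model. PBS then holds high hearts alone, against high and low hearts after LCWE, so treatment and the division are partly confounded in these counts. Values are given for the genes with the smallest p. Nppb differed by 1.47 ± 0.28 with treatment alone (adjusted p = 0.211) and by 1.29 ± 0.20 at equal Myh7 (adjusted p = 0.154). Per2, a member of the higher clock genes, differed by -1.87 ± 0.73 (adjusted p = 0.264) and by -1.65 ± 0.19 at equal Myh7 (adjusted p = 0.0961). Both the division and the treatment divide the values of Per2: 130 and 95.7 CPM in the high PBS hearts, 32.2 and 52.0 CPM in the high LCWE hearts, 26.0 CPM in the low PBS heart and 6.07 to 14.4 CPM in the low LCWE hearts. Tuba4a, Pycard, Cyp4b1 and Osgin1 had differences of 1.38, 1.35, -1.27 and -1.30 with treatment alone and of 1.35, 1.35, -1.19 and -1.30 at equal Myh7.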

How the data were processed

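The deposited values were whole-number gene counts by symbol for all 19 libraries, not normalized, made by the authors. The protocols in the labels name a kit that copies RNA into cDNA and amplifies it before libraries are made. The submitters' processing notes name STAR 2.7.8a, limma 3.36.160 and GRCm38 without their roles. Which counting program and annotation were used, and whether by strand, is not given in the sources used here. Of 25239 symbols, 24366 matched GENCODE M21, and 0 columns of other samples were used.

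From the counts, filterByExpr of edgeR 4.0.16 (R 4.3.3; minimum count 10, minimum total 15) kept 14301 genes. CPM used TMM factors, with a prior count of 2 on the log2 scale. The division of the knockout hearts was described without a test, by separation within both treatments and a size of at least 2-fold. Tests were robust quasi-likelihood fits in edgeR: the slope on log2 Myh7 (CPM of the raw total) in 11 wild-type libraries with treatment as a covariate, and LCWE against PBS in the 8 knockout libraries with and without log2 Myh7. P-values were adjusted by Benjamini-Hochberg over all genes, and 0.05 was the threshold. Myh7 was left out where its level was in the model, but not from the test of treatment alone. Correlations used 100000 permutations. Genes named were the 12 separating genes with the largest difference in each direction and the 8 wild-type genes of smallest p each way (mean of at least 5 CPM), 5 genes most and 3 least like Myh7, a fixed set of cardiac genes, and members of 41 gene lists; a few genes that met these rules are not reported here. Tsc22d3, Thra, Thrb and others named beside them, the genes at the Myh7 locus, and the members named against the wild-type range were taken up after values were seen. The members and the lists were chosen with earlier results of these data known.

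Total counts ran from 11853233 to 16145911 per library. Counting error covers only part of the spread: no pair of libraries looked like a duplicate (lowest chi-square per gene 7.85 within a group and 7.20 between groups). On simulated counts of 14301 genes with 200 changed, the wild-type fit recovered 98.5% of slopes of 1 and 89.5% of slopes of 0.5, and the knockout fits 76.5% (treatment alone) and 75.0% (at equal Myh7) of 2-fold changes. The changed genes all had a mean of at least 5 CPM, genes varied independently, and the simulated hearts held no division by Myh7. The recovery therefore does not tell what share of changes the fits would find in the real knockout libraries. Alternatives were RLE factors, library totals, other filters, prior counts and sizes, limma-voom, DESeq2 1.42.0, a fit that is not robust, the number range as a covariate, and each library left out. Separation within number ranges and within libraries with and without Xist, and Ddx3y as a covariate, were added after seeing the data.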

Additional observations from a re-analysis of the deposited data

Results flagged for a closer look

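Myh6 in knockout LCWE replicate 4, a high-Myh7 heart, was 37081 CPM, far below the other 4 hearts of its group, which held 49581 to 52092 CPM. It was the only value set apart in this way among 18 tests (6 genes in 3 groups), and chance alone sets apart about 1 in 20 such groups. The same library held the most macrophage and atrial marker RNA of the knockout hearts (1619 and 4115 CPM in sum), and their part in the Myh6 value was not tested.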

How the results depend on the processing

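The number of separating genes (292) was 288 to 650 when each knockout library was left out. It was 1623 in PBS libraries alone, 650 in LCWE libraries alone (as without knockout PBS replicate 2, when LCWE hearts alone can be compared), where the balance turned from 62.7% lower to 44.0% lower, 168 with the stricter filter on low counts and 797 at a size of 1.5-fold. It was 455 with separation within number ranges and 399 within libraries with and without Xist, both without a treatment term and chosen after seeing the data. In each number range that held both sets, the high and low hearts had opposite treatments. The count of 455 can therefore not tell the division from treatment. RLE factors gave 295 genes and library totals 306, with 61.7% and 69.6% of them lower and a median shift of all genes of 0.00 and -0.05.

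The genes associated with Myh7 in wild type (140) ranged from 0 to 615 when each wild-type library was left out, the 13 matrix genes among them from 0 to 18, and the 21 lower knockout genes called there from 0 to 42. The lowest value in all 3 came without wild-type LCWE replicate 1, and the highest of the first came without wild-type LCWE replicate 3. Leaving out any of the other 9 gave 29 to 81 genes, so that each of the 11 libraries moved the count by over 1.5 times. All 3 were 0 with the number range as a covariate, within numbers from 100 to under 200 and with Ddx3y as a covariate (added after seeing the data), at 1933, 2006 and 1418 genes with an unadjusted p under 0.05 in edgeR. DESeq2 gave 582 genes and 42 of the lower ones. LCWE against PBS in the knockout (0 genes) ranged from 0 to 1313 with libraries left out, and from 0 to 632 at equal Myh7 (both highest without knockout PBS replicate 2, with 8 and 10 without knockout LCWE replicate 4 and 0 otherwise). DESeq2 gave 419 and 426, and at equal Myh7 no filter gave 1 and the number range as a covariate 988. The cause of these changes was not tested. No paired analysis was possible because replicate numbers were given in accession order and pair no samples.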

Other observations

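Lists of 4 further kinds were drawn up after the values had been seen, so their counts describe the choice as much as the data. Of 11 cytoskeletal genes of growing cells, 6 separated lower and 10 lay below 0, with a median of -1.09. Among them were Fscn1, the actin-bundling fascin (-1.77), the tubulins Tuba1a (-1.30) and Tubb2b (-1.35), Tpm4, a nonmuscle tropomyosin (-1.09), and Ckb, the brain-type creatine kinase (-1.17). Ckb held 39.3 and 39.5 CPM against 100 after PBS and 53.7 and 62.5 CPM against 115, 135 and 116 after LCWE. Tpm4 held 61.2 and 87.2 CPM against 155 after PBS, and 88.0 and 95.4 CPM against 176, 219 and 195 after LCWE. In wild type the median slope of these 11 genes was -0.20.

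Of 14 basement membrane genes, 2 separated lower (Col4a1 and Col18a1) and 12 lay below 0, with a median of -0.51. In wild type 7 of them fell with Myh7, against 0.671% of all genes, with a median slope of -0.24. Without wild-type LCWE replicate 1, 0 did so, the median was -0.22 and 12 slopes lay below 0. Of 13 imprinted growth genes, 1 separated lower (Mest) and 8 lay below 0, with a median of -0.26, and Igf2 and H19 differed by -0.23 and 0.19. Of 15 vascular growth ligands and receptors, 3 separated lower (Apln, Aplnr and Kit), while Vegfa and Kdr differed by -0.15 and -0.51 and overlapped.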
